A study of Mus musculus with 3 samples.

Results

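The results concern 10 genes of the CD47 axis and related engulfment signals, chosen by name from 55196 genes that could be matched in every culture. They are Cd47, the glutaminyl cyclase genes Qpctl and Qpct, the partner genes Sirpa and Thbs1, Calr with its receptor gene Lrp1, Cd24a with its receptor gene Siglecg, and the scramblase gene Xkr8. All 10 were measured and all are protein-coding. The samples were 3 separate cultures of Ba/F3, a mouse haematopoietic cell line that depends on interleukin-3 (IL-3) for growth. Every culture was kept in RPMI with 10% fetal calf serum, penicillin-streptomycin and 0.2 ng/mL recombinant murine IL-3 at 37 °C and 5% CO2. They belong to a study whose title concerns ITPK1 and the killing of tumour cells by neutrophils through IgA. No other treatment, genotype or control group is given, so the data describe levels and the spread between cultures. They come from a line in culture with no phagocyte present, and in bulk RNA fewer expressing cells and less RNA per cell cannot be told apart.

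CD47 is a surface protein that engages SIRPα on macrophages and neutrophils and restrains engulfment, and it also binds thrombospondin 1. The cyclases QPCTL in the Golgi and QPCT in the secretory pathway convert an N-terminal glutamine to pyroglutamate, and QPCTL does so on CD47, which strengthens SIRPα binding. Calreticulin is a chaperone of the endoplasmic reticulum that acts as an "eat me" signal when it reaches the surface, where LRP1 on phagocytes recognises it. CD24 is a small sialylated glycoprotein on a glycosylphosphatidylinositol (GPI) anchor that engages Siglec-G in mice, and XKR8 is the scramblase that exposes phosphatidylserine after caspase cleavage.

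The libraries held 32044889, 33880292 and 37180883 gene-assigned reads in cultures 1, 2 and 3. A single read was worth 0.0312, 0.0295 and 0.0269 CPM (reads per 1000000 gene-assigned reads), and intervals and limits below cover counting error only. Of 5 pan-haematopoietic genes, 5 were detected, meaning at 1 CPM or more in every culture. Summed levels ranged from 0.767 to 1.06 CPM for 7 fibroblast markers and from 0.134 to 0.218 CPM for 4 epithelial markers, with none detected. Of 8 macrophage markers 4 (50%) were detected, a share near the 45.9% of protein-coding genes. They were Itgam (118 ± 2.46 CPM), Cd68 (88.3 ± 1.60), Adgre1 (25.8 ± 1.57) and Csf1r (1.91 ± 0.209; SD, n = 3 each), while Marco and Mrc1 had no read. Of 7 early B lineage markers 2 (28.6%) were detected, and Ebf1 had no read. Genes of mitochondrial DNA took 1.68%, 1.31% and 1.04% of the reads in cultures 1, 2 and 3.

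The 2 short coding stretches below carry the residues around which this axis is built, and stand in the transcripts of the most abundant genes of the set. In Cd47 the capitals mark codon 19, the glutamine codon that begins the mature protein and is the substrate of the cyclases. It lies on the plus strand of chromosome 16 (GRCm38), and the stretch spans the junction of exons 1 and 2 between positions 49855829 and 49867790.
Cd47: tgcggttcagctCAActactgtttagtaac
Of 9 coding Cd47 transcripts in GENCODE M21, 4 hold this codon with the residues that follow it. The deposited values are per gene and do not separate the transcripts. In Calr the capitals mark codons 413 to 416, the C-terminal retention signal of the endoplasmic reticulum, followed by the stop codon, in exon 9 on the minus strand at chr8:84842647-84842676.
Calr: tcccctggccaagccAAGGATGAGCTGtag

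Promoters from RefSeq (GRCm38.p6, 250 bases before to 50 after the first start listed for a gene) were available for 4 of the 10 genes. The windows of 3 are shown because they hold a motif that was searched for. The Cd47 window lies inside the gene as annotated in GENCODE M21 (chr16:49800533-49915010), not at its first base. Capitals mark the fixed letters of the motif. Cd47 at chr16:49855404-49855703 on the plus strand and Lrp1 at chr10:127621099-127621398 on the minus strand hold GCGC and TGCGC with 1 free base between them, the form bound by nuclear respiratory factor 1. Calr at chr8:84846882-84847181 on the minus strand holds CCAAT and CCACG with 9 free bases between them on its reverse strand, the endoplasmic reticulum stress element.
Cd47: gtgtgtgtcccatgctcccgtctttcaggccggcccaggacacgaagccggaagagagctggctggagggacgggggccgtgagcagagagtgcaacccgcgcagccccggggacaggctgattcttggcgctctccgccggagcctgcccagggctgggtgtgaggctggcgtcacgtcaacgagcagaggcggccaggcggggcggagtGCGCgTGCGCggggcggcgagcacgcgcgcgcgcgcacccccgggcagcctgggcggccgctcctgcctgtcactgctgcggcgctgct
Lrp1: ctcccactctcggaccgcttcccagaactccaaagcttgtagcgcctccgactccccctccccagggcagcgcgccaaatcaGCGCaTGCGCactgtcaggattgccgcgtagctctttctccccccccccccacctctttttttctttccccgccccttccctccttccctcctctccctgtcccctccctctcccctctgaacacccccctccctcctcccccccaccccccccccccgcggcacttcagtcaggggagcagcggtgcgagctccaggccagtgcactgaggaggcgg
Calr: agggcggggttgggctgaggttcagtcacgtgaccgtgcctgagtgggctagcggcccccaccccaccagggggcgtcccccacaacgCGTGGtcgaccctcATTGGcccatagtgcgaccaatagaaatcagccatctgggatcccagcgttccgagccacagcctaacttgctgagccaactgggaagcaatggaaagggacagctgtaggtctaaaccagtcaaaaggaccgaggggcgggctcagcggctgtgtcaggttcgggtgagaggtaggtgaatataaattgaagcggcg
Read on both strands, the first motif occurs in 4.78% of 27025 promoters of the same length and the other in 0.130%; the motifs did not overlap here. The Cd47 window held 35 CpG dinucleotides, the Calr window 17, the Lrp1 window 16 and the Siglecg window 1, beside a median of 7 over all promoters. The Siglecg window held neither motif. These matches describe letters and not binding. Levels of Cd47 and Lrp1, which share a motif, lay at opposite ends of the detected genes, and a link between motif and level was not tested.

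Of the 10 genes, 6 were detected: Calr, Cd47, Qpctl, Siglecg, Xkr8 and Lrp1. Among all protein-coding genes 45.9% were detected, and among all genes 19.9%. Thbs1 and Sirpa had a few reads, and Qpct and Cd24a were listed at 0 in every culture, as were 34.6% of protein-coding genes and 58.4% of all genes. The number detected was 6 at thresholds of 0.5 and 5 CPM as well. Levels of different genes are compared below as CPM per kb of exon, using the union of a gene's annotated exons. The median over detected protein-coding genes was 9.39 CPM per kb.

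**Figure D1:**
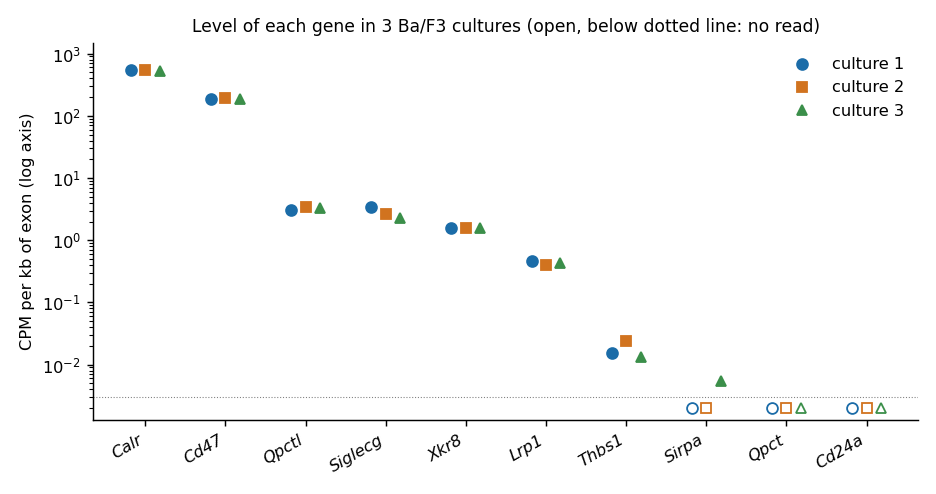
CPM per kb of exon (log axis) of the 10 genes in cultures 1, 2 and 3, ordered by mean level, with open symbols under the dotted line for cultures without a read. Calr lay between 522 and 542 CPM per kb and Cd47 between 186 and 191, the other 4 detected genes lay at 3.47 or lower, and Qpct and Cd24a have open symbols in all cultures.

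Ordered by mean CPM per kb, the detected genes were Calr, Cd47, Qpctl, Siglecg, Xkr8 and Lrp1. Neighbours in this order did not overlap between cultures, except Qpctl and Siglecg.

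Cd47 (ENSMUSG00000055447, chr16:49800533-49915010, plus strand) had 37394, 40545 and 43702 reads in cultures 1, 2 and 3, or 186, 191 and 187 CPM per kb. These values differ by little, and their mean of 188 ± 2.45 CPM per kb (SD, n = 3) stands at the 98.3 percentile of detected protein-coding genes. The detected protein-coding genes nearest to it over the 3 cultures, by Euclidean distance of log2(CPM per kb + 1), were the chaperonin subunit gene Cct8 (187 CPM per kb, distance 0.00802), the transcription factor gene Btf3 (187, distance 0.0463) and the chaperone gene Hsp90aa1 (192, distance 0.0501). Likeness over 3 cultures of 1 line is mostly likeness in level.

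Qpctl (ENSMUSG00000030407, chr7:19139702-19149291, minus strand), the cyclase gene for CD47, had 427, 507 and 531 reads, or 3.09, 3.47 and 3.31 CPM per kb in cultures 1, 2 and 3. The cultures lay close together and far under Cd47, and the mean of 3.29 ± 0.191 CPM per kb (SD, n = 3) is at the 19.5 percentile of detected protein-coding genes. Per kb, Cd47 was 60.1, 54.9 and 56.5 times Qpctl in cultures 1, 2 and 3, a mean of 57.2 ± 2.68 (SD, n = 3). The ratio is 43.0 with the longest transcript as length and 83.3 on CPM with no length. On the opposite strand, exons of Fbxo46 share 471 of 4310 exon bases of Qpctl (10.9%), and Fbxo46 stood at 28.7 CPM. The strand setting of the counting is not given in the sources used here, so reads in that stretch cannot be assigned to either gene with certainty.

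Qpct (ENSMUSG00000024084, chr17:79051906-79090378, plus strand), which encodes the secreted cyclase, was listed at 0 in every culture. Over all 103106064 reads, a count of 0 allows up to 0.0291 CPM (3 reads). None of its 50-base transcript windows occurred in a transcript of another gene. Among 10 genes of other substrates and pyroglutamate-removing enzymes, 2 (20%) were detected, beside 45.9% of protein-coding genes. These were Pgpep1, the cytosolic pyroglutamyl peptidase gene, at 6.18 ± 0.384 CPM per kb and the chemokine gene Cx3cl1 at 2.10 ± 0.0846 CPM per kb (SD, n = 3). The chemokine genes Ccl2, Ccl7 and Ccl8, known substrates of the cyclases, had no read.

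Sirpa (ENSMUSG00000037902, chr2:129592835-129632228, plus strand), the gene of the receptor that reads CD47, had 0, 0 and 1 reads in cultures 1, 2 and 3. Thbs1 (ENSMUSG00000040152, chr2:118111876-118127133, plus strand), the gene of the soluble ligand, had 3, 5 and 3 reads. Sirpa lay under the depth limit of 3 reads and Thbs1 at 3 to 5 reads, so Ba/F3 carried abundant Cd47 RNA with almost none of these partners. The activating relatives Sirpb1a, Sirpb1b and Sirpb1c had no read, and no gene among Thbs2, Thbs4 and Comp exceeded 0.0312 CPM in any culture. Thbs3, another thrombospondin gene, had 1.84, 0.974 and 0.645 CPM in cultures 1, 2 and 3 and was not counted as detected.

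Of 23 genes on the list of CD47 partners and signalling, 13 (56.5%) were detected, beside 45.9% of protein-coding genes. The median over the list was 15.3 CPM, beside 0.231 CPM over all protein-coding genes. The most abundant per kb were Bnip3, whose product binds CD47 (384 ± 11.3 CPM per kb), the inhibitory G protein gene Gnai2 (171 ± 4.63), the integrin gene Itgb1 (109.7 ± 4.01) and Ptpn6 (66.1 ± 2.18; SD, n = 3 each). Ptpn6 encodes SHP1 and Ptpn11 encodes SHP2, the phosphatases that SIRPα recruits in phagocytes. Ptpn11 had 24.1 ± 0.728 CPM per kb, and Ptpn6 was 2.57 to 2.89 times Ptpn11 per kb over the cultures. CD47 sits in the Rh complex of red cells, and its genes Rhd, Rhag and Epb42 had 9.62, 7.86 and 2.13 CPM per kb on average. Integrin αv, a partner of CD47, was represented by Itgav at 12.6 ± 0.403 CPM per kb (SD, n = 3), whereas its β3 chain gene Itgb3 had 3, 5 and 3 reads.

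Calr (ENSMUSG00000003814, chr8:84841850-84846934, minus strand) was the most abundant gene of the set. It had 49726, 52892 and 55844 reads, or 539, 542 and 522 CPM per kb, in cultures 1, 2 and 3. The mean of 534 ± 11.0 CPM per kb (SD, n = 3) is at the 99.4 percentile of detected protein-coding genes and 2.84 ± 0.0566 times Cd47. Culture 3 was lowest for Calr, though only by a few percent. A processed pseudogene, Calr-ps, shares 10 of 2919 Calr windows of 50 bases and had 1, 3 and 8 reads.

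Lrp1 (ENSMUSG00000040249, chr10:127538161-127621148, minus strand), the gene of the calreticulin receptor of phagocytes, was the lowest detected gene of the set per length. It had 263, 242 and 284 reads in cultures 1, 2 and 3, or 0.463, 0.403 and 0.431 CPM per kb. The mean of 0.433 ± 0.0301 CPM per kb (SD, n = 3) is at the 1.75 percentile of detected protein-coding genes. Calr was 1163 to 1345 times Lrp1 per kb over the cultures, and 189 to 219 times on CPM with no length. At a threshold of 1 CPM per kb in place of 1 CPM, Lrp1 is the gene that leaves the detected set. Lrpap1, which encodes the chaperone of LRP1, stood at 16.0 ± 0.477 CPM per kb, 37.2 ± 3.68 times Lrp1 (SD, n = 3).

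The list of calreticulin retention and exposure held 17 genes, with Calr, its paralogues, Lrp1 and Lrpap1 among them. Of these 17 genes, 14 (82.4%) were detected, beside 45.9% of protein-coding genes. Their median was 65.8 CPM, beside 0.231 CPM over all protein-coding genes. The partner chaperone genes Pdia3 and Canx had 227 ± 7.08 and 179.5 ± 3.97 CPM per kb, and Bcap31, a membrane protein gene of the exposure route, had 111 ± 1.75 (SD, n = 3 each). The receptors that read the retention signal printed above are encoded by Kdelr1 (46.5 ± 0.961 CPM per kb), Kdelr2 (47.6 ± 2.51) and Kdelr3 (14.6 ± 0.190; SD, n = 3 each). The paralogue Calr3 had 2.78 ± 0.178 CPM per kb and Calr4 a single read. Stc1, whose product traps calreticulin inside cells, had no read, and neither had Stc2.

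**Figure D2:**
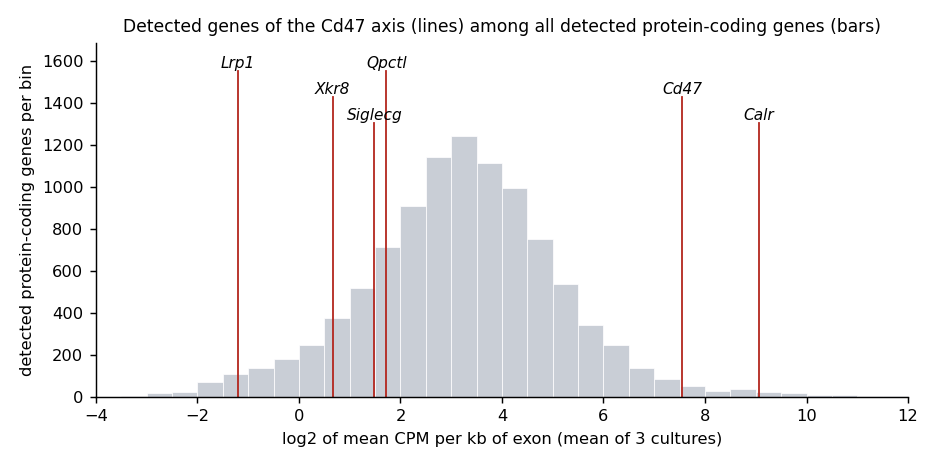
Number of detected protein-coding genes (bars, 0.5 wide) by log2 of mean CPM per kb of exon over 3 cultures, with lines at the 6 detected genes of the set. Calr and Cd47 stand in the upper tail at the 99.4 and 98.3 percentiles, and Qpctl, Siglecg, Xkr8 and Lrp1 stand in the lower part, at the 19.5, 16.5, 8.90 and 1.75 percentiles.

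Cd24a (ENSMUSG00000047139, chr10:43578284-43584265, plus strand), the gene of the second "don't eat me" ligand, was listed at 0 in every culture, with an upper limit of 0.0291 CPM over all reads. Of its 50-base windows, 69 of 2510 (2.75%) recurred in another gene. All 69 recurred in the processed pseudogene Gm6212, which also had no read. No exon of another gene overlapped it in the annotation. Of 76 ribosomal protein genes, 3 were not detected: the paralogues Rpl10l and Rpl39l, and Rpl24, which had 20, 15 and 19 reads. For Rpl24, 51.8% of windows recurred elsewhere and 47.0% of its exon bases lay in exons of Gm28037 on the same strand. How multiply matching reads were counted is not given in the sources used here, and its part in the Cd24a value was not tested.

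CD24 needs a GPI anchor. Of 28 genes for its synthesis and transfer, 27 were matched and 25 of them (92.6%) detected, beside 45.9% of protein-coding genes. The median was 30.8 CPM, beside 0.231 CPM over all protein-coding genes. The transamidase genes Pigt (45.1 ± 1.82 CPM per kb) and Pigs (31.1 ± 2.49) led, followed by Pigf (22.1 ± 0.443) and Piga (20.2 ± 2.39; SD, n = 3 each), which acts in the committing step. Pgap1, whose product removes an acyl chain from the anchor, had 1 read in 1 culture, and Pigz had reads in culture 3 only, at 0.0538 CPM. Another small GPI-anchored antigen gene, Cd52, was detected at 4.44 ± 0.0608 CPM per kb (SD, n = 3).

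Siglecg (ENSMUSG00000030468, chr7:43408204-43418358, plus strand) encodes the inhibitory receptor that reads sialylated CD24. It had 535, 430 and 408 reads, or 3.47, 2.64 and 2.28 CPM per kb, in cultures 1, 2 and 3, a mean of 2.80 ± 0.611 (SD, n = 3). Culture 1 was highest. Ba/F3 thus held RNA of this receptor with none recorded of its ligand, the reverse of Cd47 and Sirpa. Its range over the cultures overlapped that of Qpctl per kb of union exon, and with the longest transcript as length Siglecg was 0.522 to 0.851 times Qpctl, with all cultures lower. Some windows (236 of 5090, 4.64%) recurred in other genes, 217 of them in the transcribed pseudogene Gm29791, which had 1, 1 and 0 reads. Of 9 Siglec genes 4 (44.4%) were detected, a share near the 45.9% of protein-coding genes. Mag had 3.23 ± 0.115, Siglecf 1.41 ± 0.0281 and Cd33 1.002 ± 0.121 CPM per kb (SD, n = 3 each), while Siglech and Siglec15 had no read and Cd22 averaged 0.0202 CPM.

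Xkr8 (ENSMUSG00000037752, chr4:132724897-132732546, minus strand) had 221, 228 and 256 reads in cultures 1, 2 and 3, or 1.60, 1.56 and 1.60 CPM per kb. The cultures were nearly equal, and the mean of 1.59 ± 0.0216 CPM per kb (SD, n = 3) was below Siglecg and above Lrp1 with no overlap of cultures. The order of Xkr8 and Lrp1 depends on length: on CPM with no length Xkr8 was 0.840 to 0.942 times Lrp1. XKR8 reaches the plasma membrane with basigin or neuroplastin, whose genes Bsg and Nptn had 455 ± 11.1 and 14.7 ± 0.235 CPM per kb (SD, n = 3 each). Bsg was 287 ± 7.91 times Xkr8 per kb (SD, n = 3).

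Of 24 genes that expose or retain phosphatidylserine, 20 (83.3%) were detected, beside 45.9% of protein-coding genes. Their median was 47.9 CPM, beside 0.231 CPM over all protein-coding genes. In the XKR family Xk (6.87 ± 0.212 CPM per kb), Xkr5 (3.39 ± 0.311) and Xkr6 (1.40 ± 0.390) were detected beside Xkr8. No read was listed for Xkr4, Xkr7 or Xkr9. Xkr4 and Xkr9 encode the other scramblases known to be activated by caspases. Ano6, which encodes the calcium-activated scramblase TMEM16F, had 4.16 ± 0.123 CPM per kb, 2.62 ± 0.0896 times Xkr8 (SD, n = 3). Flippases that return phosphatidylserine to the inner leaflet were higher: Atp11b had 40.8 ± 2.39 and Atp11a 16.6 ± 0.337 CPM per kb, and their shared subunit gene Tmem30a had 36.5 ± 0.840 (SD, n = 3 each). Its relative Tmem30b had no read.

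Of 8 genes of other surface ligands that restrain or promote engulfment, 5 (62.5%) were detected, beside 45.9% of protein-coding genes. They were led by B2m, the MHC class I light chain gene, at 281 ± 12.1 CPM per kb, then Pecam1 at 25.7 ± 0.653, Cd274 at 7.60 ± 0.451 and Cd52 at the level above (SD, n = 3 each). Cd47 was 0.669 ± 0.0264 times B2m per kb (SD, n = 3). Slamf7, which promotes engulfment of haematopoietic cells, had a single read in each culture, and Cd200 and Cd300a had a single read in all. Over the lists and the 10 genes together, 97 of 147 measured genes were detected, or 66.0%, beside 45.9% of protein-coding genes.

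**Figure D3:**
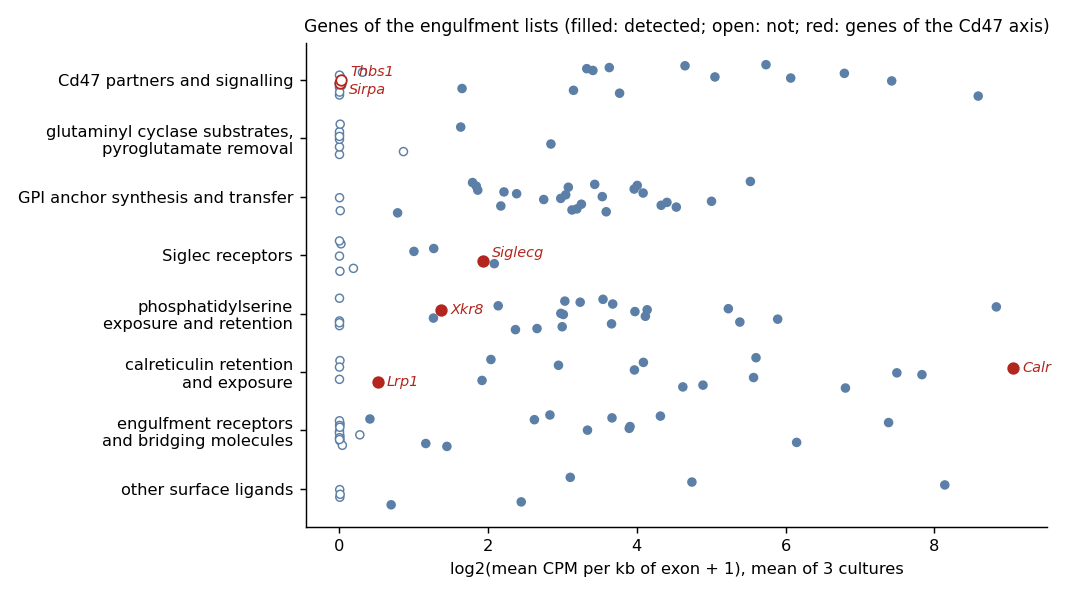
Log2(mean CPM per kb of exon + 1) over 3 cultures for each gene of 8 engulfment lists, filled where detected and open where not, with the genes of the set in red (Cd47, Qpctl, Qpct and Cd24a are on none of these lists). Calr is the highest point of all, the GPI list holds 25 of 27 filled points, and 8 of 10 points of the cyclase substrate list are open.

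To ask whether cultures differed by more than the sampling of reads, a chi-square test for Poisson counts was run, adjusted by Benjamini-Hochberg over 13139 genes with a mean of at least 10 reads. The test called 3 of the 6 genes of the set that could be tested, beside 32.7% of all these genes. With a minimum mean of 100 reads, which all 6 genes met, 40.2% of genes were called. The p-values compare these libraries and not conditions. Siglecg passed with an adjusted p of 4.0e-09 and a highest culture 1.52 times the lowest. Calr passed with an adjusted p of 8.2e-10 at 1.04 times, and Cd47 with an adjusted p of 0.00571 at 1.03 times. The chi-square test did not call Qpctl (adjusted p = 0.356, 1.12 times), Lrp1 (adjusted p = 0.454, 1.15 times) or Xkr8 (adjusted p = 0.975, 1.02 times). These genes had 705 to 1465 reads over all cultures, beside 121641 for Cd47 and 158462 for Calr, so a missing call does not show that they were steadier.

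**Figure D4:**
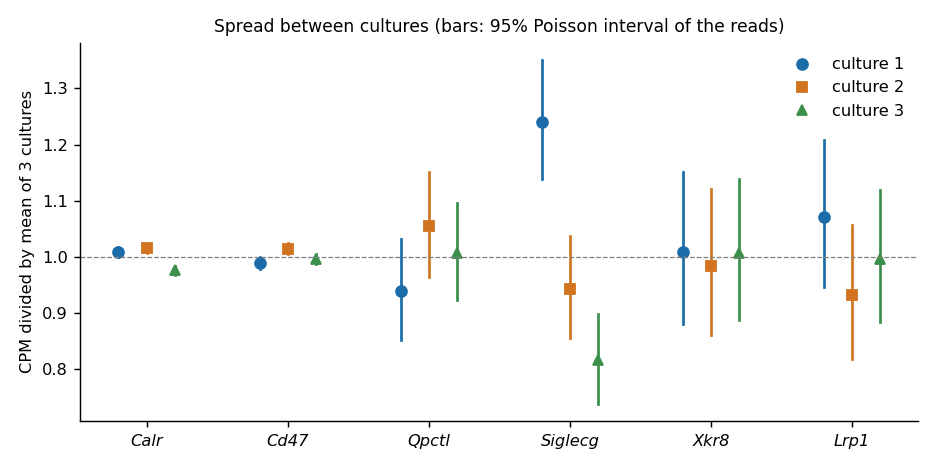
CPM of each culture divided by the gene's mean over 3 cultures, with bars for the 95% Poisson interval of the reads. Siglecg stood at 1.24, 0.943 and 0.816 in cultures 1, 2 and 3, with culture 1 apart from the others, while Calr and Cd47 stayed between 0.976 and 1.01 and their bars are about the size of the symbols.

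In relative terms Siglecg was the variable gene of the set. Its coefficient of variation was 21.8%, at the 96.7 percentile of 10125 genes with at least 100 reads, whose median was 4.19%. The median of 3647 genes with 100 to 1000 reads, the range of Siglecg, was 6.72%. Those of Calr and Cd47 were 2.07% and 1.30%, at the 19.3 and 7.99 percentiles, and the median of 578 genes with at least 10000 reads was 2.95%. The Siglecg call ended without culture 1 (chi-square, adjusted p = 0.179), the Calr call without culture 3 (0.579), and the Cd47 call without culture 1 (0.0710) or culture 2 (0.493). Culture 1 also had the fewest reads and the largest mitochondrial share given above, and their part in the Siglecg difference was not tested.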

How the data were processed

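Polyadenylated RNA was made into strand-marked libraries and read as 50-base single ends, per the labels' protocols and the series' design text. The authors aligned reads to GRCm38 with HISAT2 and counted them with GenSum, per the design text. HISAT2 and GRCm38 also stand in the submitters' processing notes. Not given in the sources used here are versions, strand setting, annotation release and the treatment of multiply matching reads. The authors' deposited values are on a log2 scale, of reads per 10000000 plus 1, as the column sums show. Whole reads came back for 100% of entries within 0.01.

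Of 23001 rows with reads, 0 carry an identifier and a symbol of the same gene. Cultures 1 and 2 were read by identifier and culture 3 by its row's coordinates in GENCODE M21 (54916 of 55486 rows) or symbol (345), leaving 225 rows unmatched. Among 543 abundant genes the median log2 difference of culture 3 from the others was 0.048 after this step, against 0.15 on the same rows; cultures 1 and 2 differed by 0.051. The authors' average column follows the rows and was not used.

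Reads were scaled to column sums (CPM) and divided by union exon length. Detection means at least 1 CPM in every culture. The design assumed no contrast, and no count package was used. The chi-square test was tried on simulated Poisson reads for 13139 genes: changes by 1.2, 1.5, 2 and 4 times in 1 culture were called for 54.0%, 74.0%, 88.0% and 100% of 50 genes each, and unchanged genes for 0.085%. The simulated reads held counting noise only and genes of all depths, so these rates do not carry over to the real libraries or to single genes. Shared windows were exact 50-base matches, on either strand, in transcripts of other genes. Python 3.11.15, scipy 1.17.1 and pandas 2.3.3 were used. The 10 genes, the 8 lists and 5 marker lists were chosen with earlier results of these data known. By rule, the text names the 10 genes, up to 4 of the highest detected and of the lowest undetected genes of each list, certain genes fixed by name, and the 3 genes nearest to Cd47; further list genes and Rpl24 were named after their values were seen. A few genes the rule names are not reported here. Alternatives covered scaling, length, threshold, pseudocount, read minimum, row order and leaving out each culture.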

Additional observations from a re-analysis of the deposited data

How the results depend on the processing

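With the longest transcript as length the Cd47 mean was 225 CPM per kb, and with rows as deposited it was 210.0, beside 188. With the longest transcript Qpctl was 5.24 CPM per kb, beside 3.29, and with rows as deposited Calr was 839, beside 534; the deposited rows add another gene's value for culture 3. Cd47 over Qpctl was 83.3 on CPM with no length and 43.0 with the longest transcript, beside 57.2. Without each culture in turn the Cd47 mean ranged from 187 to 189, the ratio from 55.7 to 58.3, and the number of genes of the set called for spread from 1 to 2, beside 3. Over all genes tested, 11.1%, 29.5% and 20.2% were called without cultures 1, 2 and 3, beside 32.7%. The number of genes detected stayed at 6 at 0.5 and 5 CPM, at 1 CPM in at least 1 culture and with each culture left out, and was 5 at 1 CPM per kb. Over all lists the count ranged from 92 to 98, beside 97. Scaling by median of ratios or trimmed mean of M values changed no call on the set. A pseudocount of 0.1 moved the log2 medians of 5 of the 8 lists by more than the spread between cultures. No paired analysis was possible because the cultures form 1 group. Depth sets a limit of 3 reads, or 0.0807 to 0.0936 CPM per culture, under which Qpct, Cd24a and Sirpa lay in every culture.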

Other observations

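Of 25 genes of receptors, bridging molecules and cytoskeletal proteins that phagocytes use to engulf other cells, 12 (48%) were detected. This share is near the 45.9% of protein-coding genes detected, and the median was 0.603 CPM, beside 0.231 CPM over all protein-coding genes. The GTPase genes Rac2 (166 ± 2.90 CPM per kb) and Rac1 (69.9 ± 2.01) led, followed by Dock2 (18.9 ± 0.575), the haematopoietic activator of RAC, and the transporter gene Abca7 (14.01 ± 1.59; SD, n = 3 each). Rac2 was 2.38 ± 0.0744 times Rac1 per kb (SD, n = 3).

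Of the 25 genes, 5 had no read in any culture. Among them were the receptor genes Mertk, Timd4 and Havcr1 and the bridging gene C1qa, while the bridging gene Gas6 had 1 read. Tyro3 was the TAM receptor gene with the highest level, at 5.15 ± 0.321 CPM per kb and 15.9 ± 1.89 times Axl. Bridging molecules were represented by Mfge8 at 11.7 ± 0.666 and Pros1 at 9.09 ± 0.522 CPM per kb, and the scavenger receptor gene Stab1 had 6.11 ± 0.0779 (SD, n = 3 each).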
